A study of Homo sapiens with 12 samples.

Results

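The genes of 7 transcription factors of the epithelial-mesenchymal transition (EMT), namely SNAI1, SNAI2, ZEB1, ZEB2, TWIST1, TWIST2 and PRRX1, were followed through 3 histone H3 marks in 4 related colorectal cancer cell lines. The genes were chosen by name, and every counted region overlapping a gene or its 5 kb flanks on build hg19 was taken. This gave 27 of 244278 regions, made up of 9 of 36400 for H3K4me3, 16 of 50000 for H3K27me3 and 2 of 157878 for H3K79me3. SA, grown out of soft agar colonies, and SPH, grown out of colonospheres, are labelled mesenchymal. METS, recovered from a lung metastasis of a xenograft, and DLD1, the parental line, are labelled epithelial. All lines descend from DLD1 and share 1 growth medium, McCoy's 5A containing fetal bovine serum; how many clones founded each derivative is not stated in the labels. There was 1 library per line and mark, 12 libraries in all, so differences between a derivative and DLD1 have no replicate check. The titles of the derivative libraries also carry the word parental, and the lines were told apart by their descriptions. The epithelial and mesenchymal states are those of the labels and were not checked against marker genes.

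SNAI1 and SNAI2 are zinc finger repressors that bind E-box motifs, among others in the promoter of the E-cadherin gene. ZEB1 and ZEB2 are zinc finger and homeodomain repressors of epithelial genes, TWIST1 and TWIST2 are basic helix-loop-helix factors, and PRRX1 is a paired-related homeobox factor of mesenchymal tissue. H3K4me3 sits at active or poised promoters, H3K27me3 is laid down by Polycomb repressive complexes, and the presence of both at a gene is known as bivalency. Methylation of H3K79 is carried out by DOT1L along transcribed genes.

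Library totals were 6722508 to 7753937 counts for H3K4me3, 15605814 to 20410151 for the part of the H3K27me3 table that was held, and 6165169 to 7521451 for H3K79me3. Values are counts scaled to a library total of 1000000 (CPM), and intervals in brackets are 95% intervals of counting error alone. Reads come from whole cell populations, so fewer cells with a mark and less of it per cell cannot be told apart. None of the libraries is an input control, that is, DNA without immunoprecipitation. Differences between lines in background reads or DNA copy number therefore cannot be told apart from differences in a mark. The part of the H3K27me3 table that was held covers chromosomes 1 to 19, and H3K27me3 at SNAI1, on chromosome 20, was not analysed here. Several rows of the H3K27me3 table begin and end at the borders of a gene, and rows can overlap each other. The row with the highest ratio of shared to joint length with a gene therefore stood for that gene, and no sum over rows was taken. At SNAI2, ZEB1, ZEB2 and PRRX1 this row spans the gene. At TWIST2 it covers 51.9% of the gene, from its start. At TWIST1 only 2.3% of a 96.7-kb row lies in the gene, so that row mostly reports on the sequence downstream of it.

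CpG-rich promoters are known to carry H3K4me3 and, where silenced by Polycomb, H3K27me3, and the promoters of the set differ in how many CpG dinucleotides they hold. RefSeq promoter sequences (GRCh38.p14) were matched for 4 of the 7 genes: ZEB1, ZEB2, TWIST2 and PRRX1. They are shown for the 250 bases before the annotated start, 5′ to 3′ on the gene's strand (the minus strand for ZEB2, the plus strand for the others), with CpG dinucleotides in capitals. For ZEB1, which has 7 annotated starts, the most upstream one is shown. The sequences belong to another build than the counts and were not placed against the counted regions.
ZEB1: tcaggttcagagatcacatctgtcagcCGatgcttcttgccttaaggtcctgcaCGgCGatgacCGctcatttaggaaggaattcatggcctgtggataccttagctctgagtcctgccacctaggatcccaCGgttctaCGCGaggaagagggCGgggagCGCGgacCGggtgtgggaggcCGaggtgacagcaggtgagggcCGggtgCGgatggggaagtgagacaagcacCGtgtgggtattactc
ZEB2: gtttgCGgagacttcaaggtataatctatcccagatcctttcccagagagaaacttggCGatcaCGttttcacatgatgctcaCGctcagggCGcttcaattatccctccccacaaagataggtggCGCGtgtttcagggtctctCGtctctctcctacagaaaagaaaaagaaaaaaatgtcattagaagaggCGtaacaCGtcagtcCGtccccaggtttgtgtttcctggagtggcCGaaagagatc
TWIST2: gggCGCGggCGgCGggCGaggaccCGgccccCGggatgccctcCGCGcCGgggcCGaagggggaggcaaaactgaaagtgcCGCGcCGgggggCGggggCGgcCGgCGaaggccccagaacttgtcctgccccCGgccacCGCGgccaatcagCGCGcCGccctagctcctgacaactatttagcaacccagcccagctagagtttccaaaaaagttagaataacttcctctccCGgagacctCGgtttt
PRRX1: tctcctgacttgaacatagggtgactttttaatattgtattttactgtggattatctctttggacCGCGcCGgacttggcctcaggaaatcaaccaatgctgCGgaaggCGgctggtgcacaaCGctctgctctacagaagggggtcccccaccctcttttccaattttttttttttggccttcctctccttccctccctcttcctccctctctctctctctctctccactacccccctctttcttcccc

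The TWIST2 sequence holds 26 CpG dinucleotides, the ZEB1 sequence 15, the ZEB2 sequence 12 and the PRRX1 sequence 6, against a median of 11 in 35116 promoter windows of the same length. Over the 7 annotated ZEB1 starts the number ran from 7 to 27. The E-box core bound by SNAI and ZEB proteins, CACCTG or its reverse complement CAGGTG, was found 1 time before the first ZEB1 start and 2 times before the third, and not in the ZEB2, TWIST2 or PRRX1 windows. On both strands together it occurred in 17.5% of all windows. A match describes letters in the window and is no evidence of binding.

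**Figure D1:**
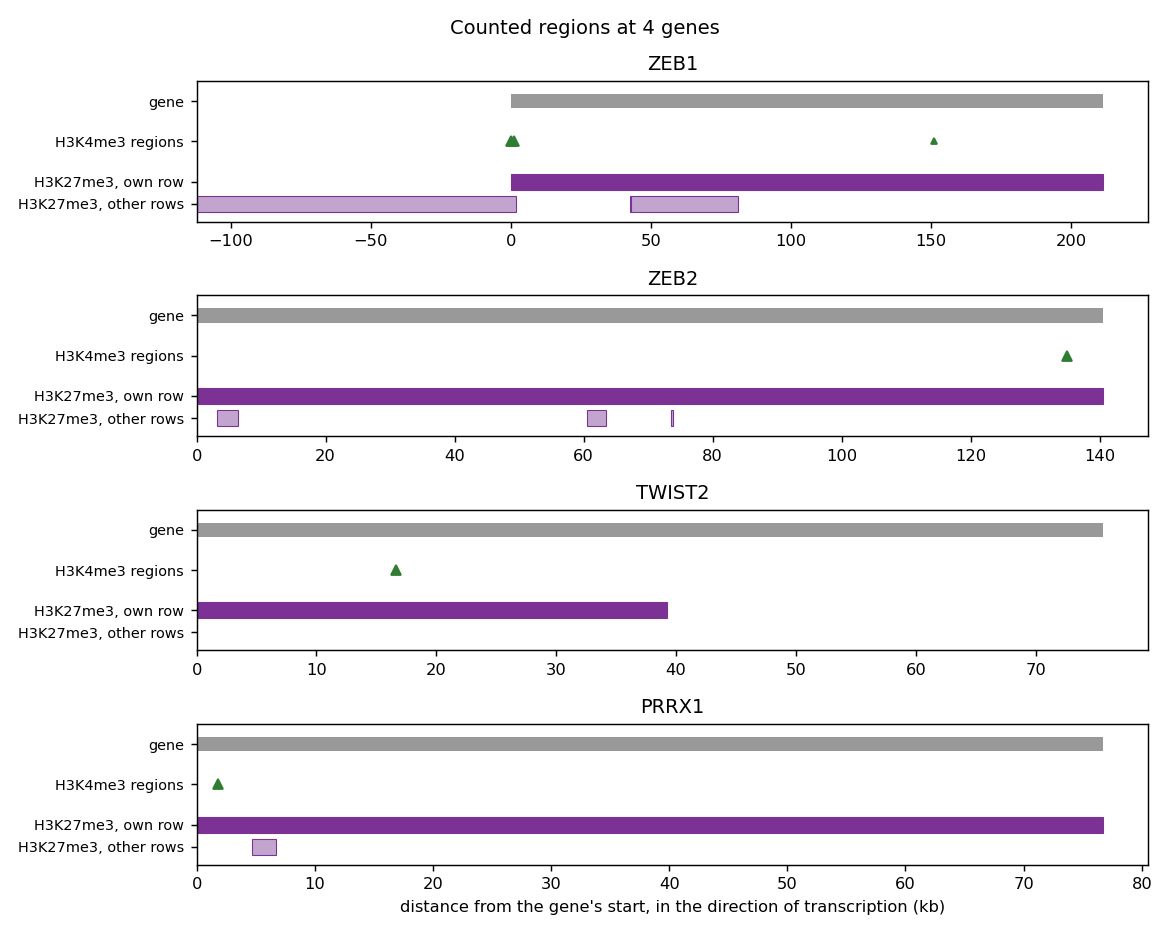
Counted regions at ZEB1, ZEB2, TWIST2 and PRRX1 by distance from the gene's start in kb, in the direction of transcription. Grey bars are genes, triangles H3K4me3 regions (the small one had 1 count in all), dark bars the H3K27me3 row standing for the gene and light bars other rows overlapping it. The H3K4me3 region of PRRX1 and those of ZEB1 other than the small one lie near the start. The small one lies 150842 bases after the ZEB1 start, and the one of ZEB2 lies 134768 bases into a gene of 140.5 kb.

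The 7 genes differed in whether and where they carried H3K4me3. The start of a gene means here the upstream end of the interval given for it, and other annotated starts were not placed. ZEB1 and SNAI1 carried the mark at their start, PRRX1 just inside the gene, TWIST2 and ZEB2 deep inside the gene, and SNAI2 and TWIST1 had no counted region. The nearest H3K4me3 region to SNAI2 lay 117.8 kb away and that to TWIST1 76.8 kb away. How the authors chose the regions they counted is not given in the sources used here, so a gene without one has no value rather than a level of 0.

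The highest H3K4me3 of the set was at the start of ZEB1. The region chr10:31607404-31607851, which begins 20 bases before the gene, had 63.8 CPM in SA, 55.5 in SPH, 61.5 in METS and 61.1 in DLD1, and 84.0% of all H3K4me3 regions had a lower mean over the lines. Per length this was 136.5 CPM per kb in DLD1, against 68.15 CPM per kb at the strongest SNAI1 region and 25.0 at PRRX1. The next ZEB1 region, chr10:31608247-31608539, had 8.38, 9.23, 10.0 and 10.7 CPM in the same order. Summed over its 3 regions, ZEB1 was 1.01-fold (0.89 to 1.14) in SA, 0.901-fold (0.791 to 1.03) in SPH and 0.995-fold (0.877 to 1.13) in METS relative to DLD1, so no derivative differed from DLD1 beyond counting error. The third region, chr10:31758266-31758735 inside the gene, held 1 count in SA and 0 in the other lines.

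SNAI1 carried H3K4me3 in 3 regions, of which those nearest the start were the strongest. The region chr20:48599606-48600011, from 70 bases after the start, had 24.9 CPM in SA, 22.65 in SPH, 27.8 in METS and 27.7 in DLD1. The region chr20:48598944-48599301, which ends 235 bases before the start, had 17.3, 11.2, 17.9 and 20.8 CPM, and the outlying chr20:48595638-48596073 had 1.29, 0.559, 2.46 and 2.53 CPM. SPH was the lowest line in all 3. Relative to DLD1 it was 1.22-fold lower (0.984 to 1.52) after the start, 1.86-fold lower (1.405 to 2.48) just before it and 4.52-fold lower (1.475 to 18.5) at the outlying region, which rests on 4 counts in SPH against 17 in DLD1. Summed over the gene, SNAI1 was 1.48-fold lower (1.26 to 1.755) in SPH, 1.17-fold lower (1.01 to 1.37; TMM-scaled ratio 0.864, 0.741 to 1.01) in SA and 1.06-fold lower (0.91 to 1.23) in METS. This sum includes the regions before the start; the region inside the gene alone gave SPH the 1.22-fold above, whose interval holds 1. In the order DLD1, METS, SA, SPH, only the step between SA and SPH exceeded counting error, at 1.26-fold (1.07 to 1.496).

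PRRX1 showed the clearest H3K4me3 difference of the set, and it ran toward less of the mark in the mesenchymal lines. Its region chr1:170633429-170633881, 1560 to 2012 bases after the start, had 5.80 CPM (45 counts) in SA, 3.49 CPM (25 counts) in SPH, 10.0 CPM (73 counts) in METS and 11.3 CPM (76 counts) in DLD1. Both mesenchymal lines lay below both epithelial lines. SA was 1.95-fold (1.33 to 2.88) and SPH 3.235-fold (2.035 to 5.31) lower than DLD1, while METS was 1.13-fold lower with an interval that holds 1 (0.809 to 1.58). Between METS and SA the step was 1.72-fold (1.17 to 2.56), and between SA and SPH it was 1.66-fold (0.997 to 2.83), or 1.72-fold (1.03 to 2.93) with TMM factors.

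ZEB2 had no H3K4me3 region near its start. Its only region, chr2:145146938-145147379, lies near the 3′ end of the gene and had 9.93 CPM in SA, 14.1 in SPH, 8.49 in METS and 12.8 in DLD1. METS was 1.51-fold lower than DLD1 (1.075 to 2.12), and SA and SPH did not differ from DLD1 beyond counting error. The TWIST2 region, chr2:239773126-239773551, 16453 bases into the gene, had 3.35, 3.63, 2.46 and 2.23 CPM in SA, SPH, METS and DLD1. The mesenchymal lines were the higher pair there, but on 15 to 26 counts no step between neighbouring lines exceeded counting error.

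**Figure D2:**
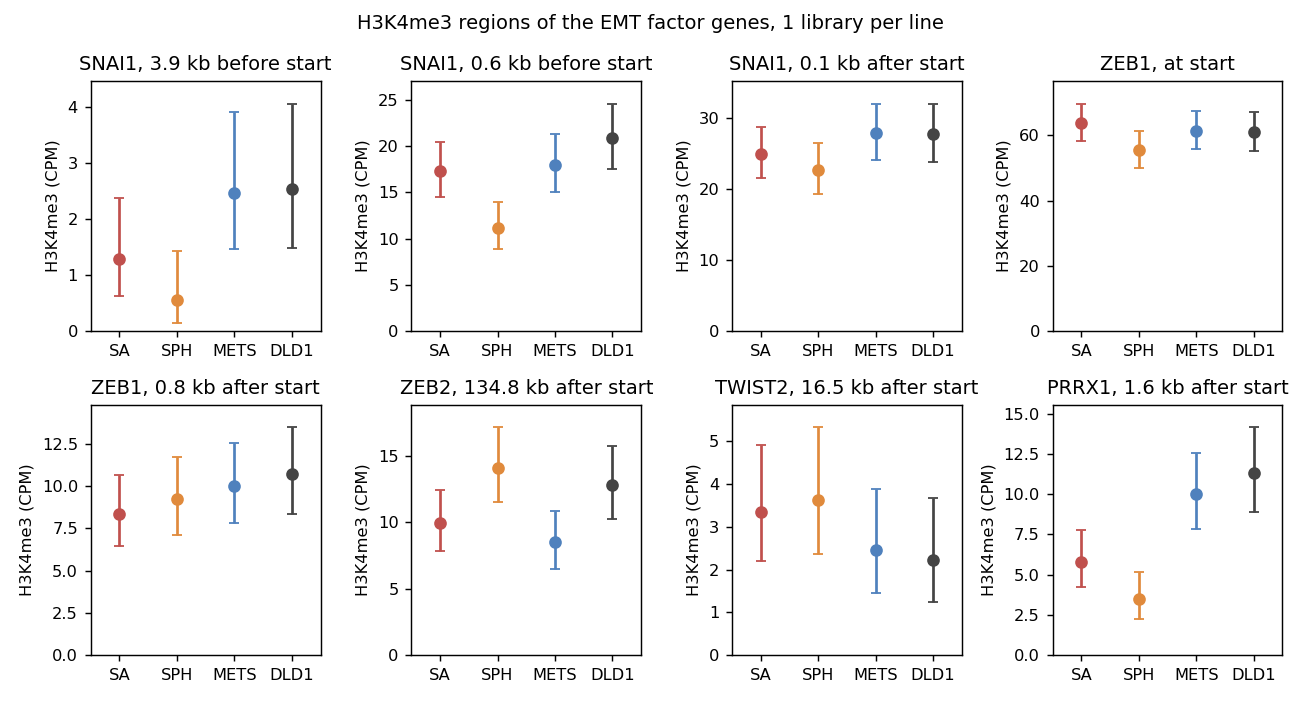
H3K4me3 in CPM (y axis, from 0) at the 8 regions with a mean of at least 1 CPM, in SA, SPH, METS and DLD1. Points are single libraries and bars exact 95% Poisson intervals; ZEB1 at its start stays between 55.5 and 63.8 CPM, while PRRX1 lies at 5.80 and 3.49 CPM in SA and SPH, against 10.0 and 11.3 CPM in METS and DLD1.

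A region was counted as different when its ratio to DLD1, with 0.5 CPM added to both values, reached 2-fold. In SA 0 of the 9 H3K4me3 regions passed upward and 0 downward, where 0.539% and 2.15% of all regions did. In SPH 0 were higher and 2 lower, the outlying SNAI1 region and PRRX1, against 3.66% and 3.41% of all regions. In METS 0 were higher and 0 lower, against 4.0% and 1.11%. The 9 regions had median log2 ratios to DLD1 of -0.26 (SA), -0.20 (SPH) and -0.03 (METS), where the median of all regions was -0.01, 0.02 and 0.00.

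For H3K27me3, ZEB1 and ZEB2 differed from DLD1 in opposite directions. All 3 derivatives had less of the mark over ZEB1 and more over ZEB2 than DLD1, whichever state they are labelled with. The 3 ratios share the single DLD1 library, so the 3 comparisons are not independent of each other. The ZEB1 row chr10:31607424-31818742, 211.3 kb long, had 112 CPM in SA, 89.0 in SPH, 95.5 in METS and 184 in DLD1. DLD1 stood alone at the top, and SA was 1.65-fold (1.56 to 1.74), SPH 2.07-fold (1.95 to 2.19) and METS 1.93-fold (1.82 to 2.04) lower. The ZEB2 row chr2:145141648-145282147, 140.5 kb long, had 121 CPM in SA, 162 in SPH, 134 in METS and 81.6 in DLD1. Here DLD1 stood alone at the bottom, and SA was 1.48-fold (1.38 to 1.58), SPH 1.99-fold (1.86 to 2.12) and METS 1.64-fold (1.53 to 1.75) higher. Among the derivatives, SPH was farthest from DLD1 and SA nearest to it at both genes. With TMM factors, which rescale the libraries to each other, the step between METS and SPH at ZEB1 was 1.01-fold (0.951 to 1.08) and that between METS and SA at ZEB2 1.03-fold (0.975 to 1.09), both within counting error. The steps to DLD1 exceeded it with either scaling.

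Per length, the order of the ZEB genes differed between the derivatives and DLD1. ZEB1 had 0.529, 0.421 and 0.452 CPM of H3K27me3 per kb in SA, SPH and METS, against 0.871 in DLD1. ZEB2 had 0.858, 1.15 and 0.951 CPM per kb in SA, SPH and METS, against 0.581 in DLD1. ZEB2 was thus the denser of the pair in each derivative, and ZEB1 in DLD1. By the mean over the lines, ZEB1 was denser than 69.0% and ZEB2 than 79.6% of the rows of at least 1 kb. The median density of those rows was 0.298 CPM per kb. H3K4me3 at the start of ZEB1 did not differ from DLD1 beyond counting error in any derivative, as given above. Among the 3205 rows with at least 50% of the mean level of ZEB1, the share with a lower ratio to DLD1 than ZEB1 was 2.8% (SA), 1.5% (SPH) and 1.7% (METS). For ZEB2, 96.2%, 98.2% and 97.2% of 3115 such rows had a lower ratio.

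Other H3K27me3 rows at the ZEB genes mostly differed in the same direction. Those inside a gene lie within the row standing for it, so their direction is no separate support. The row upstream of ZEB1 overlaps the ZEB1 row only near the ZEB1 start. A 38.3-kb row inside ZEB1, chr10:31650356-31688682, had 12.5 CPM in SA, 9.02 in SPH, 10.0 in METS and 22.6 in DLD1. There SPH was 2.502-fold (2.09 to 3.01), METS 2.25-fold (1.89 to 2.69) and SA 1.81-fold (1.53 to 2.14) lower. The 114.2-kb row that runs upstream from the ZEB1 start, chr10:31495207-31609376, was lower as well, with SA 1.35-fold (1.255 to 1.46), SPH 1.67-fold (1.54 to 1.801) and METS 1.48-fold (1.375 to 1.60) below DLD1. In ZEB2 a 3.4-kb row 3089 to 6483 bases after the start, chr2:145275664-145279058, had 2.38 CPM in SA, 2.99 in SPH, 4.58 in METS and 1.28 in DLD1. METS was the highest line at that row, 3.58-fold above DLD1 (2.19 to 6.12), whereas SPH was the highest over the whole gene. A row of 2967 bases farther inside ZEB2, chr2:145218679-145221645, had 2.38 CPM in SA, 4.70 in SPH, 3.5 in METS and 2.37 in DLD1, and only SPH differed from DLD1 beyond counting error, at 1.98-fold higher (1.345 to 2.98). The rows of 261 and 311 bp at ZEB1 and ZEB2 held at most 7 counts in a line.

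The surroundings of the ZEB genes did not follow to the same degree. Ratios in this paragraph were taken with 0.5 CPM added to both values. That addition pulls rows of low level nearer to no difference, and the neighbouring rows were not matched to the ZEB genes in level. Within 1 Mb of ZEB1, outside its window, lay 18 H3K27me3 rows with a mean of at least 1 CPM. Their median log2 ratio to DLD1 was -0.24 (SA), -0.19 (SPH) and -0.13 (METS), where ZEB1 stood at -0.72, -1.04 and -0.94. Of these 18 rows, 1, 0 and 0 had a lower ratio than ZEB1. The 23 H3K4me3 regions in the same span had medians of -0.02, 0.045 and 0.02. Around ZEB2, 13 such H3K27me3 rows had medians of -0.13 (SA), 0.42 (SPH) and 0.36 (METS), where ZEB2 stood at 0.56, 0.99 and 0.71. All 13 had a lower ratio than ZEB2 in SA, 11 in SPH and 10 in METS. In SPH and METS the neighbouring rows were thus higher than in DLD1 as well, by less than ZEB2 at the median.

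SNAI2 also had less H3K27me3 in every derivative, again relative to the same single DLD1 library. Its row chr8:49830249-49834299, 4.1 kb long, held 32 counts (1.69 CPM) in SA, 39 (1.91 CPM) in SPH and 31 (1.53 CPM) in METS, against 68 (4.36 CPM) in DLD1. DLD1 was again alone at the top, and the 3 derivatives did not differ among themselves beyond counting error. SA was 2.57-fold (1.67 to 4.05), SPH 2.28-fold (1.52 to 3.47) and METS 2.85-fold (1.84 to 4.51) lower than DLD1. Within 1 Mb, 16 other H3K27me3 rows had median log2 ratios of -0.01, 0.02 and 0.07 in SA, SPH and METS, with 0.5 CPM added to both values. SNAI2 stood at -1.15, -1.01 and -1.26 on that scale, and 0, 1 and 1 of the rows lay below it. By the mean over the lines, the SNAI2 row was denser than 69.9% of the rows of at least 1 kb. H3K27me3 was the only one of the marks with a counted region at SNAI2. A second row within its window, chr8:49826419-49826939, held at most 8 counts in a line.

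By the mean over the lines TWIST2 and PRRX1 had the densest H3K27me3 of the set, although in SPH itself ZEB2 was denser, and SPH was the lowest line at both. PRRX1, in the row chr1:170631869-170708560, had 1.48, 1.122, 1.47 and 1.51 CPM per kb in SA, SPH, METS and DLD1, above 88.3% of the rows of at least 1 kb by its mean over the lines. TWIST2, in the row chr2:239756673-239795893, had 1.30, 0.982, 1.43 and 1.39 CPM per kb, above 86.8% of them. SPH was 1.35-fold (1.26 to 1.44) lower than DLD1 at PRRX1 and 1.41-fold (1.28 to 1.56) lower at TWIST2, and by library totals SA and METS did not differ from DLD1 at either gene beyond counting error. With TMM factors PRRX1 in SA was 1.08-fold DLD1 (1.01 to 1.15). These differences lie inside the bulk of the table, since 18.2% and 14.7% of rows of comparable level had a lower ratio in SPH. At PRRX1 the line with the least H3K27me3 was thus also the line with the least H3K4me3. A 2.0-kb row inside PRRX1, chr1:170636522-170638566, had 1.85, 1.62, 2.66 and 2.63 CPM in the same order.

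The row standing for TWIST1, chr7:19060614-19157295, had the lowest density, with 0.185, 0.217, 0.209 and 0.243 CPM per kb in SA, SPH, METS and DLD1, and 36.2% of rows of at least 1 kb had less by the mean over the lines. SA was 1.31-fold lower than DLD1 (1.13 to 1.53) and METS 1.16-fold lower (1.01 to 1.34), while the interval for SPH held 1. With TMM factors the ratio of METS to DLD1 was 0.882 (0.764 to 1.02), no longer beyond counting error. The short rows on either side of the gene, chr7:19152097-19153894 and chr7:19159556-19161539, held 8 to 14 counts, and no derivative differed from DLD1 there.

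**Figure D3:**
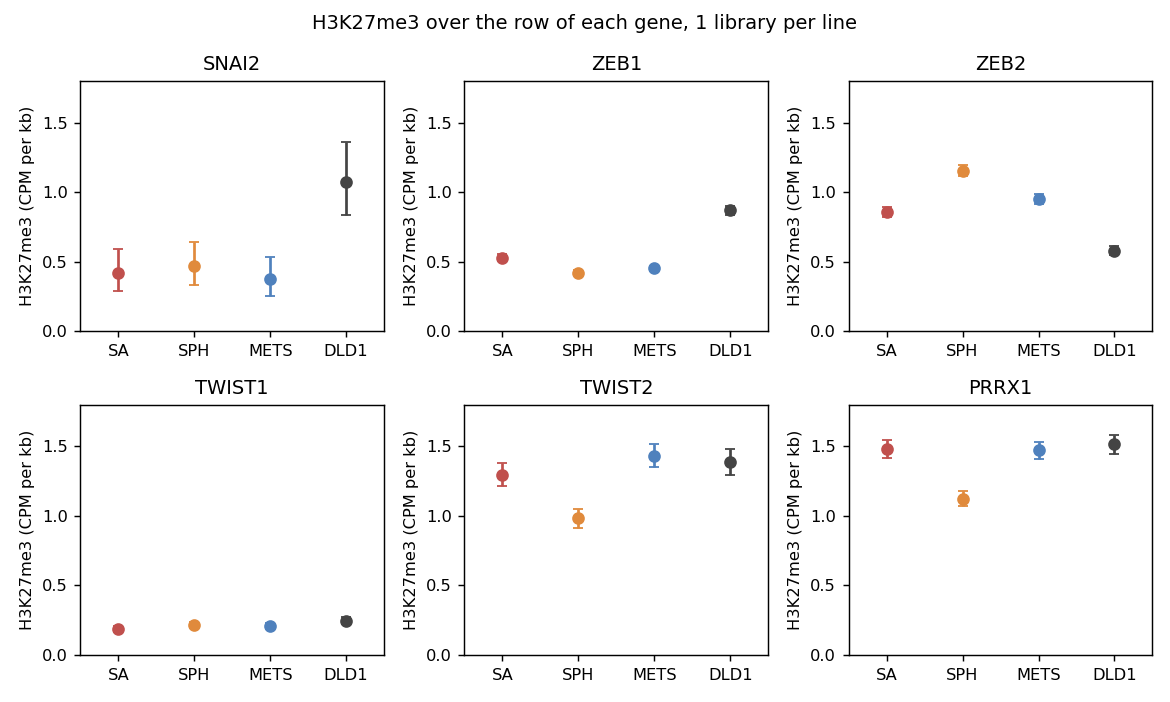
H3K27me3 density in CPM per kb (y axis, from 0) over the row standing for each of 6 genes, in SA, SPH, METS and DLD1. Points are single libraries and bars exact 95% Poisson intervals; DLD1 is the highest line at SNAI2 and ZEB1 and the lowest at ZEB2.

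**Figure D4:**
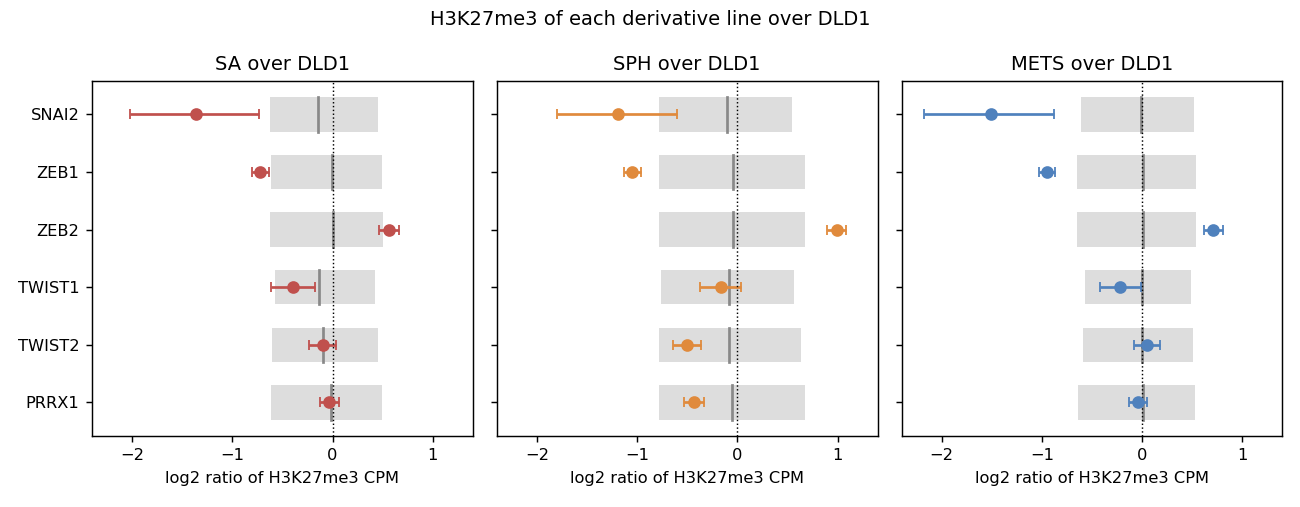
Log2 ratio of H3K27me3 CPM of SA, SPH and METS over DLD1 (x axis) for the same 6 rows, with exact 95% Clopper-Pearson intervals. The panels share the single DLD1 library and are not independent. Grey bars span the 5th to the 95th percentile, and grey ticks mark the median, of all rows with at least 50% of the mean level of that gene. Bars and ticks use ratios with 0.5 CPM added to both values, and the points do not. ZEB1 and SNAI2 lie to the left of the bars and ZEB2 to the right in all 3 panels. With 0.5 CPM added SNAI2 stood at -1.15 (SA), -1.01 (SPH) and -1.26 (METS), also left of its bars.

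By the 2-fold threshold, 0 of the 16 H3K27me3 rows were higher and 1 lower in SA, where 0.329% and 0.488% of all rows were, and the 1 was SNAI2. In SPH 0 were higher and 3 lower, namely SNAI2, ZEB1 and the 38.3-kb row inside it, against 0.707% and 1.44%. In METS 1 was higher, the ZEB2 row near the start, and 2 were lower, SNAI2 and the row inside ZEB1, against 0.504% and 0.763%. The rows at ZEB1, and likewise those at ZEB2, overlap, so these are not separate places. The 16 rows had median log2 ratios to DLD1 of -0.285 (SA), -0.31 (SPH) and -0.20 (METS), where the median of all rows was -0.08, -0.07 and -0.01. Scaling by TMM factors, with 0.5 CPM still added, took SNAI2 and ZEB1 in SPH short of the threshold and brought ZEB2 and its row near the start past it. Before that addition the TMM-scaled ratios of SPH to DLD1 were 0.476 for SNAI2, 0.525 for ZEB1 and 2.16 for ZEB2; the direction at these genes was the same with both scalings.

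H3K79me3 was counted at 1 of the 7 genes, SNAI1, and weakly. The region chr20:48599701-48600074 had 0.962 CPM in SA, 1.46 in SPH, 2.64 in METS and 1.46 in DLD1, on 7 to 17 counts. The region chr20:48600411-48600731 had 1.37 CPM (10 counts) in SA, 3.24 CPM (20 counts) in SPH, 2.64 CPM (17 counts) in METS and 0.931 CPM (7 counts) in DLD1. Summed, SNAI1 was 1.97-fold (1.06 to 3.76) in SPH and 2.21-fold (1.21 to 4.15) in METS relative to DLD1, while SA was at 0.977-fold (0.473 to 2.01). The second region passed 2-fold in SPH and METS and not in SA, where 3.07%, 7.22% and 1.09% of all H3K79me3 regions did so in SPH, METS and SA. At the strongly H3K4me3-marked ZEB1 the nearest counted H3K79me3 region lay 80.8 kb from the gene, and at the other genes it lay 35.7 kb (TWIST2) to 569.6 kb (TWIST1) away.

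The labels part the lines into mesenchymal and epithelial, and this parting was tested with 2 lines on each side. An edgeR quasi-likelihood model over all regions of a mark, with each line as 1 replicate, called 0 of the 9 H3K4me3 regions higher and 0 lower in the mesenchymal lines, where 0.00561% and 0.292% of all regions were called. Of the 9, 2 had an unadjusted p under 0.05, as had 11.0% of all regions, and DESeq2 called 0. For H3K27me3 edgeR called 0 of 16 higher and 0 lower, against 0.343% and 0.294% of all rows, and DESeq2 called 0. Of the 16, 5 had an unadjusted edgeR p under 0.05, as had 8.81% of all rows. They were SNAI2, ZEB1, the longer row inside ZEB1, ZEB2 and the row inside PRRX1. The ZEB1 rows overlap and are not separate places. ZEB2 was higher in the mesenchymal lines, and the others were lower. For H3K79me3 edgeR called 0 of 2, and 0% of all regions either way; 0 of the 2 had an unadjusted p under 0.05 and DESeq2 called 0. No label names separate cultures, so these p-values measure no more than how far the lines themselves differ.

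PRRX1 H3K4me3 came closest among the H3K4me3 regions. It was 4.70 CPM in the pooled mesenchymal lines and 10.6 CPM in the pooled epithelial lines, 2.26-fold lower (1.69 to 3.05), with an edgeR log2 fold change of -1.19 ± 0.38 (SE) and an edgeR adjusted p of 0.236. Over the alternatives its adjusted p ran from 0.0147, with edgeR and SA left out, to 0.905, with edgeR and SPH left out. The value below the threshold came where SPH alone stood for the mesenchymal lines and 5335 regions were called in all. For ZEB1 H3K27me3 the pooled levels were 99.97 CPM in the mesenchymal and 134 CPM in the epithelial lines, with an edgeR log2 fold change of -0.48 ± 0.20 (SE) and an edgeR adjusted p of 0.414. Leaving out METS, whose level lay near those of SA and SPH, leaves DLD1 as the only epithelial library, assumed to vary as SA and SPH do. The edgeR adjusted p was then 0.0104 for ZEB1, 0.0219 for the row inside it and 0.0497 for SNAI2, with 435 rows called in all against 308 with every line. Without SA, with SPH as the only mesenchymal library and 1243 rows called, the edgeR adjusted p was 0.0173 for the row inside ZEB1. Over all alternatives for ZEB1 the edgeR or DESeq2 adjusted p ran from 0.0104 to 0.971. ZEB2 had pooled H3K27me3 of 142 CPM in the mesenchymal and 111 CPM in the epithelial lines, with an edgeR log2 fold change of 0.39 ± 0.19 (SE) and an edgeR adjusted p of 0.558.

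Without regard to size, both mesenchymal lines lay above both epithelial lines at 1 of the 9 H3K4me3 regions, TWIST2, and below them at 5, where this held for 20.7% and 21.0% of all regions. The 5 were the 3 regions of SNAI1, the second region of ZEB1 and PRRX1. For H3K27me3 it held above at 0 and below at 2 of 16 rows, TWIST2 and the row inside PRRX1, against 11.9% and 26.1% of all rows. For H3K79me3 it held above at 0 and below at 1 of 2 regions, chr20:48599701-48600074 of SNAI1. SPH and DLD1 both rounded to 1.46 CPM there, and the share of all H3K79me3 regions is not given here. Neither ZEB1, ZEB2 nor SNAI2 parted the lines in this way for H3K27me3, since METS lay on the mesenchymal side of DLD1 at each.

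TWIST2 had the widest range of H3K27me3 log2 ratios over the derivatives, at 0.54, and the rows most like it in these 3 ratios lay on other chromosomes. By Euclidean distance they were chr9:136243117-136271220 at 0.02, chr18:77794346-77854968 at 0.03 and chr12:107487076-107517092 at 0.04, out of 6337 rows compared. The first had 26.2 CPM in SA, 19.9 in SPH, 28.7 in METS and 27.9 in DLD1. In all, 43 rows lay within a distance of 0.1, so a pattern over 3 ratios singles out no partner. At the edge of the windows, the outermost region taken was the SNAI1 H3K4me3 region ending 3.5 kb from the gene, and the nearest one left out was the H3K27me3 row chr2:239840998-239847965, 8.8 kb from TWIST2, with 8.79, 6.81, 6.36 and 9.36 CPM in SA, SPH, METS and DLD1.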

How the data were processed

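Chromatin immunoprecipitation libraries of H3K4me3, H3K27me3 and H3K79me3 from 4 lines (1 library per line and mark) had been summarised by the authors as raw read counts per region, the unit judged from whole numbers with unequal column totals. The build was hg19 per the submitters' processing notes; which programs aligned reads, chose regions and counted is not given in the sources used here. The H3K27me3 tables state that 7773 rows were skipped, so their totals cover the part held. Members and lists were chosen with earlier results of these data known. Gene positions came with the definition of the gene set; strands of ZEB1, ZEB2, TWIST2 and PRRX1 follow RefSeq and those of SNAI1, SNAI2 and TWIST1 general knowledge. Named genes were the 7 members with every region within 5 kb; other genes were not placed, since no annotation of the build was used, so the lists of further EMT genes and of cell type markers are not analysed here.

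Counts were divided by the library total (CPM). Ratios between lines carry exact Clopper-Pearson intervals (95%, SciPy 1.17.1) and levels exact Poisson intervals. PCR copies were not marked, so intervals cover counting error only. A region passed at 2-fold after 0.5 CPM was added. The mesenchymal and epithelial lines were compared over the whole table of each mark with edgeR 4.0.16 (quasi-likelihood test, library totals, regions with a count, Benjamini-Hochberg threshold 0.05), tested on simulated data. TMM factors, other added values, a 1.5-fold threshold, genes without flanks, a filter at a mean of 1 CPM, the DESeq2 1.42.0 Wald test and leaving out each line were alternatives. The labels name no batch.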

Additional observations from a re-analysis of the deposited data

How the results depend on the processing

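No paired analysis was possible because each line has 1 library per mark and no label pairs the lines, so a replicate block could not be fitted. Scaling, added value, threshold and flanks moved some of the small counts of regions past 2-fold. With TMM factors the H3K27me3 rows of SPH past 2-fold numbered 2 higher and 1 lower; with 0.25 CPM added, 1 was higher. With 1 CPM added, 0 H3K27me3 rows were lower in SA and 0 H3K79me3 regions higher in METS. In SPH 2 H3K27me3 rows were then lower, since SNAI2 fell short of the threshold. At 1.5-fold, H3K4me3 had 2 lower in SA and 1 higher in SPH, H3K27me3 had 1 higher and 3 lower in SA, 3 higher and 4 lower in SPH and 2 higher and 3 lower in METS, and H3K79me3 had 2 higher in METS. Without flanks, 1 H3K4me3 region was lower in SPH, since the outlying SNAI1 region falls away. The filter at a mean of 1 CPM changed none of these 18 counts. Shares of all regions past the altered settings are not given here. These counts therefore show only how the 2-fold counts moved, and rows at ZEB1 and at ZEB2 overlap. Leaving out each line gave 0 to 1 H3K4me3 regions and 0 to 3 H3K27me3 rows called lower by edgeR; TMM factors, the filter and DESeq2 changed no edgeR count of the set. Over all regions edgeR called 106 for H3K4me3, against 15 with TMM factors, 61 with the filter, 37 by DESeq2 and 58 to 5335 with a line left out. For H3K27me3 it called 308, against 318, 2, 114 and 200 to 1243, with 166 higher and 142 lower, or 250 and 68 with TMM factors; for H3K79me3 it called 0, and 0 to 345 with a line left out. Among log2 ratios of single genes, 29 of 36 stayed within their counting interval under TMM factors; without flanks SNAI1 H3K4me3 in SPH went to -0.29. Under TMM factors, for SA, TWIST2 went to 0.04 and PRRX1 to 0.11 for H3K27me3, from values whose intervals held 0. TMM-scaled intervals of ratios and steps were added after seeing the data. Depth limits SNAI2 H3K27me3, TWIST2 and PRRX1 H3K4me3 and SNAI1 H3K79me3, which rest on at most 76 counts a line.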
